A study of Mus musculus with 27 samples.

Results

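The highest dose was set against the next lower one in mouse thyroid gland organoids (mTGOs) at day 11 of culture. The comparison used the 3 libraries whose column names give day 11 and 7 Gy and the 3 whose names give day 11 and 4 Gy, 6 of the 27 libraries of the series. The organoids were grown from thyroid cells of C57BL/6 mice aged 8 to 12 weeks, were given photon radiation after 5 days of growth and were collected 6 days later, and the libraries came from 3 cultures named mTG11, mTG12 and mTG14, each sampled at both doses. No genotype other than the strain is labelled, and both doses received the same medium, with EGF, FGF2, the ROCK inhibitor Y27632 and B27. Unirradiated (0 Gy) and 2 Gy organoids of the same cultures and day shared the fit, and day 7 organoids were read by the same contrast. Each dose therefore has 3 replicates. The tests set the dose difference against a spread estimated from all 12 libraries of the day 11 fit, which came from the same 3 cultures.

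Ionizing radiation breaks DNA, and surviving cells stop dividing, repair the breaks or later divide again. Damaged or misplaced DNA in the cytoplasm can switch on type I interferon signalling, which raises antiviral genes and the MHC class I genes that show peptides to T cells. NF-κB, a factor held inactive by IκBα, is also activated by DNA damage and raises chemokines together with its own inhibitors. In the thyroid, follicular cells make hormone on thyroglobulin with hydrogen peroxide from the enzyme DUOX2, which needs the maturation factor DUOXA2.

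The 6 libraries held 3622848 to 5723150 counts, with 3622848 to 4444834 at 4 Gy and 3661836 to 5723150 at 7 Gy, so 3 counts stood for 0.524 to 0.828 CPM, the count of a gene scaled by the total of its library. Of the thyroid follicular markers, Cdh16 had no count in any of the 6 libraries and Slc5a5, Tshr, Pax8, Hhex, Dio1 and Iyd had at most 3 counts in each, while Nkx2-1, Foxe1, Duox2 and Duoxa2 were above 10 CPM in every library. Thyroglobulin, Tg, was between 0.699 and 7.87 CPM. Only part of the follicular marker list was thus clearly detected, and which cells expressed those genes was not tested. The list summed to 259 to 352 CPM at 4 Gy and 179 to 261 CPM at 7 Gy. The marker lists of basal, suprabasal and secretory mucosal epithelium were far more abundant. Their summed levels were 6752, 11554 and 8386 CPM or more in each of the 6 libraries.

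At day 11 few genes passed the test between 7 and 4 Gy. With edgeR's quasi-likelihood test, the culture as a replicate block and a Benjamini-Hochberg adjusted p under 0.05, 34 of 19901 genes were higher at 7 Gy (0.171%) and 15 were lower (0.0754%). An unadjusted p under 0.05 was reached by 2099 genes, and the number called also depends on the power of 3 replicates. Higher genes included interferon and MHC class I genes, cell cycle genes, a set of H2A histone genes, and single genes such as Cxcl2, Nfkbia, Tnfaip3 and S100a4. Lower genes included Duoxa2, the stress gene Trib3, the detoxification gene Gsta3 and the immediate early gene Egr1. The log2 fold changes ran from 0.42 to 2.32 among the higher genes, with a median of 0.91, and from -1.21 to -0.56 among the lower genes, with a median of -0.73.

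These calls rested on pairing within cultures. Without the replicate block 0 genes passed edgeR's test, with 1284 genes at an unadjusted p under 0.05 and the smallest adjusted p at 0.129. The sign was the same in all 3 cultures for all 34 higher and all 15 lower genes, while the values of the 3 libraries at 7 Gy lay wholly apart from those at 4 Gy for 18 and 11 of them. Over all genes tested 6.61% lay wholly above and 4.67% wholly below. Leaving out the 4 Gy library of mTG11, mTG12 or mTG14 left 31, 12 or 22 calls, and leaving out the 7 Gy library of mTG11, mTG12 or mTG14 left 21, 15 or 14. Calcb, Duoxa2, Gsta3, H2ac11, S100a4, Snord13, Tnfaip3 and Trib3 were called in all 6 of those fits, and 14 of the 49 genes in none of them. With a whole culture left out, Duoxa2, Gsta3, S100a4, Snord13 and Trib3 were called in 2 of 3 fits. Calcb and H2ac11 were called in 1 of these 3 fits and Tnfaip3 in 0.

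**Figure D1:**
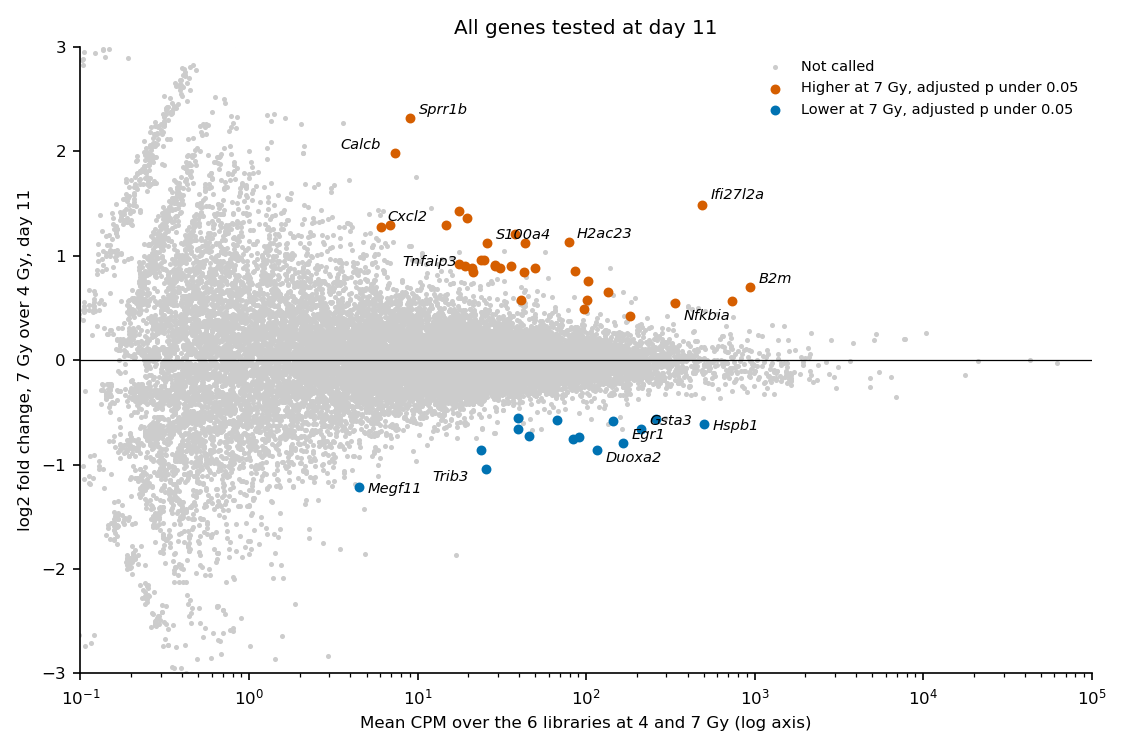
Each point is 1 gene tested at day 11, with its mean level over the 6 libraries on the x axis (CPM, log axis) and the log2 fold change of 7 Gy over 4 Gy on the y axis. Orange points are the 34 genes higher and blue points the 15 genes lower at 7 Gy at adjusted p under 0.05, grey points were not called, and 265 genes lie outside the axes.

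Cxcl2, Nfkbia and Tnfaip3 rose from 4 to 7 Gy and were not called between 0 and 4 Gy. Each of the 3 was called in 0 of the 3 fits that left out a whole culture. They are set side by side after their values were seen, and no list of NF-κB targets was tested. Bcl3 and Birc3, also known as targets of NF-κB and likewise chosen afterwards, gave log2 fold changes of 0.0035 and 0.14 and were not called (edgeR adjusted p = 1.00 and 0.832). The stretches around the transcription starts of the first 3 are shown because they are known to answer to NF-κB. In the RefSeq sequences of build GRCm38.p6, from 250 bases before to 50 bases after the start, each is written 5′ to 3′ on the strand of the gene, and capitals mark every match to a short kappa B pattern, GGGNNTTTC, on either strand.
Cxcl2: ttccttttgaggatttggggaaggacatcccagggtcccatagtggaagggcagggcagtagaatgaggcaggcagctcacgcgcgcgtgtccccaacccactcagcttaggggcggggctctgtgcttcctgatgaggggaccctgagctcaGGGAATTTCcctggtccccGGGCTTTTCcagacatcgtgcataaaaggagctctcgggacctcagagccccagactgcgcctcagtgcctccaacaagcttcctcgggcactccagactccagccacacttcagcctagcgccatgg
Nfkbia: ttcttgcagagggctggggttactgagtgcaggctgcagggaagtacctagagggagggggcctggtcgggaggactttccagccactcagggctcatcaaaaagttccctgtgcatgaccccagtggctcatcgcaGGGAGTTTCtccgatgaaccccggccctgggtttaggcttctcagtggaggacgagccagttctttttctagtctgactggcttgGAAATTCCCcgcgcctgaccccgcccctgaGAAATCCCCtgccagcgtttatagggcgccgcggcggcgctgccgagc
Tnfaip3: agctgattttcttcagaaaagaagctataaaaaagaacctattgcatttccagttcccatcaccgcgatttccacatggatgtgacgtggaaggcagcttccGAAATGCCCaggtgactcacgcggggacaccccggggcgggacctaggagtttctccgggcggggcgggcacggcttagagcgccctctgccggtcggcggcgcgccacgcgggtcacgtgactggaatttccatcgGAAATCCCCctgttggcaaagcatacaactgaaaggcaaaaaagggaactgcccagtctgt
These stretches are chr5:90903649-90903948 on the plus strand for Cxcl2, chr12:55492598-55492897 on the minus strand for Nfkbia and chr10:19015361-19015660 on the minus strand for Tnfaip3. They hold 2, 3 and 2 matches. The pattern was present in 4.36% of 32851 mouse promoters of this length, in 5 of the 28 higher genes with a promoter sequence (B2m, Cxcl2, H2ac12, Nfkbia and Tnfaip3) and in 0 of 10 lower ones. Here and below, a gene counted if any of its promoters matched, and the 38 called genes with a sequence had 46 promoters. The percentages are of single promoters, so the 2 measures are unlike. This pattern and those below were picked with the called genes known, so the counts test nothing. A match describes the sequence and does not show that a factor was bound.

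Cxcl2 (chr5:91051730-91053797, GENCODE annotation of GRCm39, as for the gene positions that follow) encodes a chemokine that attracts neutrophils. In cultures mTG11, mTG12 and mTG14, the order used for all values that follow, it was at 8.11, 7.87 and 9.66 CPM at 4 Gy and at 21.3, 22.9 and 18.3 CPM at 7 Gy. Every 7 Gy library was thus well above every 4 Gy library, a 2.46-fold rise (log2 fold change 1.30 ± 0.18 SE, edgeR adjusted p = 0.00786). Between 4 and 0 Gy the log2 fold change was -0.12 (adjusted p = 0.909).

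Nfkbia, the gene of the inhibitor IκBα, was the most abundant of the 3, and is named, like each gene below that is said to lie outside the naming rule, after its values were seen. It was at 265, 263 and 290 CPM at 4 Gy and at 414, 446 and 353 CPM at 7 Gy. The doses did not overlap, and the log2 fold change was 0.55 ± 0.09 SE (adjusted p = 0.0169), against 0.21 for 4 over 0 Gy (adjusted p = 0.397). Tnfaip3 (chr10:18874201-18891405) encodes A20, an enzyme that ends NF-κB signalling, and measured 18.4, 14.6 and 15.2 CPM at 4 Gy and 36.8, 29.0 and 29.2 CPM at 7 Gy. This was a 1.95-fold rise without overlap (log2 fold change 0.96 ± 0.12 SE, adjusted p = 0.00391), and 4 over 0 Gy gave 0.19 (adjusted p = 0.730).

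The other chemokines and cytokines were not called. Of 22 tested genes of that list, 13 had a positive log2 fold change, Cxcl2 was the only one called, and the median was 0.28, against 0.01 over all genes tested. Cxcl1, a close relative of Cxcl2, measured 22.6, 22.9 and 25.9 CPM at 4 Gy and 28.1, 33.8 and 33.1 CPM at 7 Gy, with a log2 fold change of 0.41 ± 0.15 SE that did not pass (adjusted p = 0.335). Il1b and Il6 had at most 3 counts in each of the 6 libraries.

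**Figure D2:**
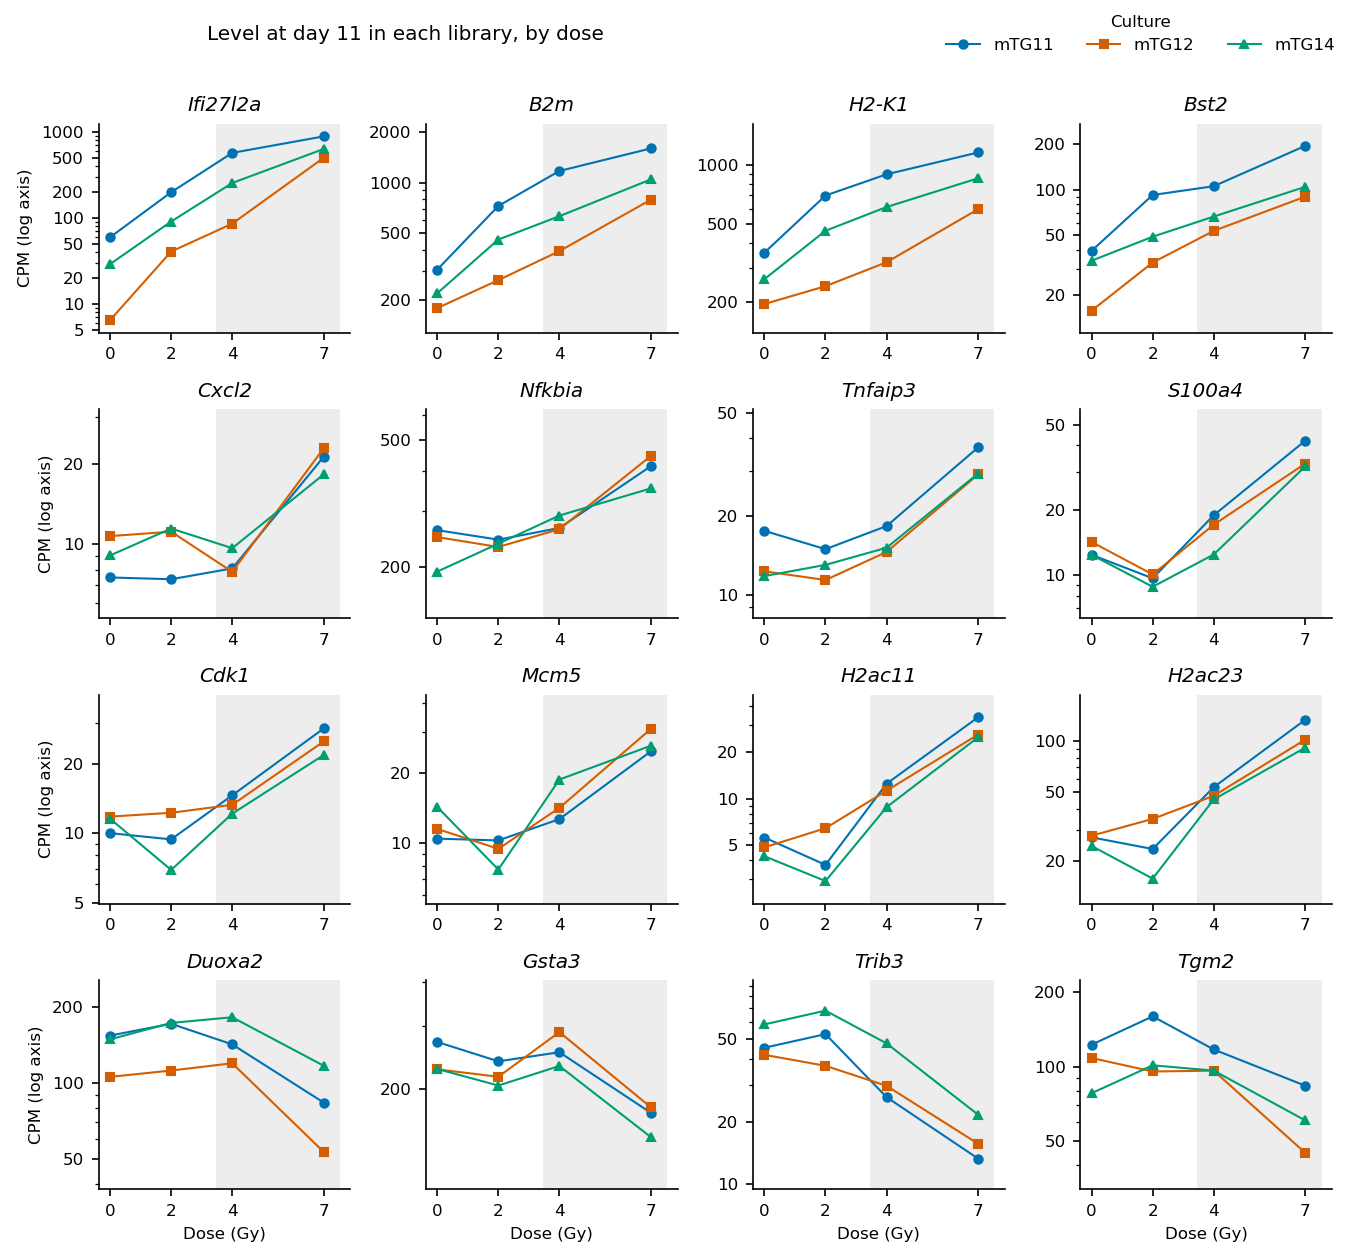
Levels at day 11 in each library (CPM, log axis, y) against dose in Gy (x) for 16 genes, with 1 line and marker for each of the 3 cultures and a grey band over the step from 4 to 7 Gy. Ifi27l2a, B2m, H2-K1 and Bst2 were called higher both from 0 to 4 Gy and from 4 to 7 Gy. Cxcl2, Nfkbia, Tnfaip3 and S100a4 were called only in the second of these steps, but 0 genes passed the test of whether the steps differed. Duoxa2, Gsta3 and Tgm2 lie lower at 7 Gy than at 4 Gy in all 3 cultures.

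Interferon-stimulated and MHC class I genes made up a further group of higher genes. Of 35 interferon-stimulated genes tested, 4 were called higher, 0 lower and 34 had a positive log2 fold change, with a median of 0.48 and medians of 0.41, 0.55 and 0.46 within the 3 cultures. Of 19 genes of MHC class I antigen presentation, 4 were called higher, 0 lower and all 19 were positive, with a median of 0.45 (0.28 to 0.53 over the alternatives). Most members of both lists thus had positive values that did not pass the test of the single gene.

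Ifi27l2a (chr12:103399975-103409950), an interferon-inducible gene, had the largest rise of any called gene with a mean of at least 10 CPM. Its levels were 568, 85.3 and 253 CPM at 4 Gy and 884, 499 and 631 CPM at 7 Gy. The cultures differed so widely that the doses overlapped, although each culture was higher at 7 Gy, and the log2 fold change was 1.49 ± 0.25 SE (adjusted p = 0.021). Against 0 Gy, 4 Gy had already raised it by 3.18 on the log2 scale (adjusted p = 5.98e-05). In 3 of the 6 fits without 1 library it was still called.

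B2m encodes the light chain that every MHC class I molecule carries, and Bst2 encodes tetherin, an antiviral membrane protein. Their promoter stretches are shown because both genes rose and both hold the core of an interferon response element, GAAANNGAA, in capitals here on either strand, with the kappa B match of B2m also in capitals.
B2m: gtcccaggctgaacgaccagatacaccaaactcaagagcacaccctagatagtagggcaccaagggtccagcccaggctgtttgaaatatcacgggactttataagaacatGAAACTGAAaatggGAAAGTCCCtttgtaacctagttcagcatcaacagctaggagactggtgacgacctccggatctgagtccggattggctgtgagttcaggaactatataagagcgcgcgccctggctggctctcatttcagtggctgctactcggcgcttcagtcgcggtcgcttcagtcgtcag
Bst2: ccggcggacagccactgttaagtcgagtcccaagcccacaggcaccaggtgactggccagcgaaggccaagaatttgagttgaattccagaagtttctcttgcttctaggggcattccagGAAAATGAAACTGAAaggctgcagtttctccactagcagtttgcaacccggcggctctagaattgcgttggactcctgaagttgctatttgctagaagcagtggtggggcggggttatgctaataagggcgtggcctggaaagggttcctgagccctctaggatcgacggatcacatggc
The stretch of B2m is chr2:122147437-122147736 on the plus strand, and that of Bst2 is chr8:71537423-71537722 on the minus strand (RefSeq, GRCm38.p6), where 2 overlapping matches run together. Of all single promoters 8.56% held GAAANNGAA. Counted by gene, it was in 6 of the 28 higher genes (Apol9b, B2m, Bst2, H2ac11, Nfkbia and Trim30a) and 0 of the 10 lower genes.

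The level of B2m was 1172, 392 and 632 CPM at 4 Gy and 1595, 792 and 1045 CPM at 7 Gy. It was higher at 7 Gy in each culture but the doses overlapped across cultures, with a log2 fold change of 0.70 ± 0.11 SE (adjusted p = 0.0179). The heavy chain gene H2-K1 went from 896, 319 and 611 CPM to 1158, 595 and 856 CPM, a log2 fold change of 0.56 ± 0.10 SE (adjusted p = 0.0327). H2-Q7 and H2-Q9, heavy chain genes of the Qa group, had nearly the same values as each other, none of them whole numbers, and their separate levels are uncertain. H2-Q7 rose 1.88-fold (adjusted p = 0.0213). For H2-D1, the other classical heavy chain, 0.45 ± 0.09 SE lay just outside the threshold (adjusted p = 0.0536).

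Bst2 went from 106, 53.5 and 66.5 CPM to 196, 90.2 and 105 CPM, a log2 fold change of 0.76 ± 0.13 SE (adjusted p = 0.021). Trim30a, an interferon-inducible gene of the tripartite motif family, rose 1.95-fold (adjusted p = 0.0142). Isg15 and Ifit1 gave 0.60 ± 0.17 and 0.34 ± 0.17 SE and did not pass (adjusted p = 0.209 and 0.504).

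Several of the called interferon and MHC genes had already been raised by 4 Gy. The log2 fold changes of 4 over 0 Gy were 1.52 for B2m, 1.07 for H2-K1, 1.34 for Bst2 and 2.43 for Trim30a, each with an adjusted p below that of its 7 over 4 Gy change. Both contrasts use the 4 Gy libraries, so a high or low 4 Gy value moves them in opposite directions. Apol9b, Slfn2, Lgals3bp and Gm20234, which lie outside the naming rule, were also called higher at 7 Gy, with log2 fold changes of 0.84, 0.57, 0.65 and 1.30. Apol9b, Slfn2 and Gm20234 were called in none of the 6 fits without 1 library. DESeq2 did not call Gm20234 (adjusted p = 0.313). Apol9b shares sequence with Apol9a and is uncertain. Among markers of immune cells, Ptprc, Adgre1, Cd3e, Cd79a and Tyrobp had at most 3 counts in each of the 6 libraries, and the summed immune markers were at 55.5 to 107 CPM at 4 Gy and 61.2 to 87.7 CPM at 7 Gy.

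Genes of the cell cycle had positive values in nearly all members of both lists, with few single calls. Of 28 mitosis genes tested all 28 had a positive log2 fold change, with a median of 0.54, and 1 was called. Of 28 replication genes 27 were positive, with a median of 0.41, and 2 were called. The summed level of the mitosis list was 531 to 589 CPM at 4 Gy and 791 to 851 CPM at 7 Gy, and that of the replication list 444 to 498 CPM and 601 to 645 CPM, so the doses did not overlap in either. In bulk RNA a larger share of dividing cells and more RNA per dividing cell cannot be told apart, and the same holds for every gene group described here.

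Mcm5 is a subunit of the helicase that opens DNA for replication, and Cdk1 is the kinase that drives entry into mitosis. Their promoter stretches are shown because each holds an E2F pattern, TTTCGCGC, in capitals on either strand, and E2F factors are known to raise such genes when cells enter the cycle.
Mcm5: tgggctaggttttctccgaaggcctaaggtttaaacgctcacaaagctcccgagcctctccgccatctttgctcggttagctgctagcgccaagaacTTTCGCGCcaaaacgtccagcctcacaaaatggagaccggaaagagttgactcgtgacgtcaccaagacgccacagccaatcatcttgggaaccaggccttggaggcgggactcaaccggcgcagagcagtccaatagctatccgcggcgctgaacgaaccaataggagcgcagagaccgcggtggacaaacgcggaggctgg
Cdk1: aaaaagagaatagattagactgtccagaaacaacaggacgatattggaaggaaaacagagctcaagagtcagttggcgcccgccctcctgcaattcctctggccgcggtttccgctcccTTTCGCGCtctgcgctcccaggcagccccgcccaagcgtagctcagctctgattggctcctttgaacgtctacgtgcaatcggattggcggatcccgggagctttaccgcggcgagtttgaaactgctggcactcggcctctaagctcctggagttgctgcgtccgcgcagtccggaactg
The stretch of Mcm5 is chr8:75109259-75109558 on the plus strand and that of Cdk1 chr10:69352863-69353162 on the minus strand (RefSeq, GRCm38.p6). The pattern was in 0.323% of all single promoters, in 4 of the 28 higher genes (Cdk1, H2ac11, H2ac12 and Mcm5) and in 0 of the 10 lower genes. It too was picked with the called genes known, and H2ac11 and H2ac12 belong to the nearly identical histone genes described below. Whether E2F acted on any of them was not tested.

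Cdk1 was at 14.6, 13.3 and 12.1 CPM at 4 Gy and at 28.5, 25 and 21.8 CPM at 7 Gy. The doses did not overlap, and the log2 fold change was 0.90 ± 0.17 SE (adjusted p = 0.0435). Mcm5 went from 12.7, 14.2 and 18.8 CPM to 24.8, 31.0 and 26.2 CPM, with 0.85 ± 0.16 SE (adjusted p = 0.0453). The spindle protein gene Tacc3 went from 14.3, 11.5 and 10.8 CPM to 25.5, 26.8 and 17.2 CPM, with 0.92 ± 0.17 SE (adjusted p = 0.0421). Dut, whose enzyme keeps uracil out of DNA, went from 34.6, 30.6 and 32.9 CPM to 49.5, 49.8 and 48.1 CPM, with 0.57 ± 0.11 SE (adjusted p = 0.0435). All 4 lay close to the threshold, and none was called in any of the 6 fits without 1 library or by DESeq2, whose adjusted p was 0.0893 to 0.107.

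Genes better known as proliferation markers had the same sign without passing. Mki67 measured 51.2, 42.6 and 37.0 CPM at 4 Gy and 83.9, 77.1 and 65.8 CPM at 7 Gy, a log2 fold change of 0.79 ± 0.20 SE (adjusted p = 0.167). For the mitotic kinase gene Aurka it was 1.03 ± 0.21 SE (adjusted p = 0.0625), and for the topoisomerase gene Top2a 0.39 ± 0.11 SE (adjusted p = 0.202).

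H2A histone genes of the H2ac family, which supply histone while DNA is copied, were grouped after their values were seen. All 16 tested members had a positive log2 fold change, with a median of 1.13, and 5 were called (H2ac8, H2ac11, H2ac12, H2ac23 and H2ac24). H2ac8 was called in none of the 6 fits without 1 library or by DESeq2 (adjusted p = 0.402). H2ac11 was at 12.5, 11.3 and 8.82 CPM at 4 Gy and at 33.8, 26.1 and 25.1 CPM at 7 Gy, 2.57-fold higher without overlap (log2 fold change 1.36 ± 0.18 SE, adjusted p = 0.00391). H2ac23, the most abundant of the 5, went from 53.7, 47.8 and 45.5 CPM to 133, 102 and 91.5 CPM (1.13 ± 0.16 SE, adjusted p = 0.00892). These genes are known to be nearly identical in sequence, and none of the values of the 5 called genes in the 6 libraries was a whole number. How reads were shared between copies is not known, so the level of a single copy is uncertain and the 5 calls may not be independent. Replication-dependent histone transcripts normally end without a poly(A) tail, whereas the libraries were primed from poly(A) RNA.

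Snord13, a small nucleolar RNA gene, rose from 29.2, 14.6 and 25 CPM to 54.8, 43.5 and 59.0 CPM (1.21 ± 0.15 SE, adjusted p = 0.00391). The RNA of the 7SK gene, Rn7sk, which restrains transcription elongation, moved the other way, from 117, 98.1 and 122 CPM to 88.7, 55.8 and 61.7 CPM (-0.74 ± 0.12 SE, adjusted p = 0.021). Neither RNA normally carries a poly(A) tail, and what their tails contributed to these values was not tested.

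Several further genes rose without belonging to these groups. S100a4 (chr3:90511074-90513354), a calcium-binding protein gene often expressed by motile cells, went from 18.9, 17.1 and 12.4 CPM to 42.1, 32.9 and 32.0 CPM, and the doses lay far apart (log2 fold change 1.12 ± 0.14 SE, adjusted p = 0.00391). Against 0 Gy, 4 Gy gave 0.30 for S100a4 (adjusted p = 0.570). Outside the naming rule, Ly6c1 and Cd34, 2 cell surface proteins, gave 0.85 ± 0.14 and 0.88 ± 0.16 SE, Depp1 0.91 ± 0.16, Dynap 0.88 ± 0.15 and Csrp1 0.42 ± 0.08 SE, all called. Dynap and Csrp1 were called in none of the 6 fits without 1 library. The endothelial markers Cdh5, Kdr, Tie1, Tek, Emcn, Cldn5 and Vwf had at most 3 counts in each of the 6 libraries. The 2 endothelial markers that could be tested gave positive log2 fold changes of 0.53 and 0.74 and were not called.

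Of the 22 genes of suprabasal and cornified epithelium, 2 were called higher and 14 were positive, with a median of 0.17 that ran from -0.05 to 0.40 over the alternatives. Sprr1b, a structural protein of the cornified envelope, was at 1.89, 4.72 and 1.66 CPM at 4 Gy and at 4.89, 35.8 and 5.46 CPM at 7 Gy. Its 2.32 ± 0.44 SE (adjusted p = 0.0447) rested most on culture mTG12, and it was called in none of the 6 fits without 1 library. Klk10, a kallikrein of stratified epithelium, went from 25.7, 40.3 and 35.3 CPM to 33.2, 99.2 and 63.6 CPM (0.88 ± 0.15 SE, adjusted p = 0.0224), again most in mTG12. Krt14, the basal keratin gene, gave 0.33 ± 0.08 SE and was not called (adjusted p = 0.138).

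Calcb, which encodes the beta form of calcitonin gene-related peptide, was at 3.78, 4.05 and 0.828 CPM at 4 Gy and at 14.5, 12.4 and 8.47 CPM at 7 Gy (log2 fold change 1.98 ± 0.27 SE, adjusted p = 0.00627). The lowest of these values, 0.828 CPM in mTG14 at 4 Gy, stood for 3 counts. It was on the list of parafollicular C cell markers, of which Calca, Chga, Chgb, Ret, Syp and Pcsk1 had at most 3 counts in each of the 6 libraries. The rise of Calcb thus came with those markers at or near 0. The 3 markers of the list that could be tested, Calcb among them, were all positive, with a median of 0.38, and only Calcb was called.

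Among the 15 lower genes, Duoxa2 (chr2:122129380-122133366) was the one with a known part in thyroid hormone synthesis. It was at 142, 120 and 182 CPM at 4 Gy and at 83.7, 53.5 and 117 CPM at 7 Gy, and each culture was lower at 7 Gy (log2 fold change -0.86 ± 0.11 SE, adjusted p = 0.00391). At 0 Gy it was at 154, 106 and 149 CPM, and 4 over 0 Gy gave 0.10 (adjusted p = 0.829). Duox2, the enzyme that DUOXA2 serves, went from 59.4, 39.9 and 67.1 CPM to 39.8, 31.9 and 40.7 CPM and did not pass (-0.56 ± 0.12 SE, adjusted p = 0.0804). Of the 10 thyroid genes tested 1 was called lower and 8 were negative, with a median of -0.34. Of the 16 genes listed, 8 had at most 3 counts in each of the 6 libraries, so some of those tested lie at that level. Over the alternatives the median of the tested genes ran from -0.36 to -0.02, the last without the 7 Gy library of mTG11, so it is loosely determined. Within the cultures it was -0.16, -0.07 and -0.10. These are differences of log2 CPM with 1 CPM added, a measure unlike the fitted fold change. Nkx2-1 and Foxe1, the follicular transcription factors, gave -0.02 ± 0.18 and -0.13 ± 0.12 SE and were not called (adjusted p = 0.984 and 0.786).

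Trib3 (chr2:152179337-152191958), a pseudokinase gene that the stress factor ATF4 switches on, had the largest fall of the genes with a mean of at least 10 CPM. It went from 26.2, 29.7 and 47.5 CPM to 13.3, 15.7 and 21.6 CPM without overlap (-1.04 ± 0.13 SE, adjusted p = 0.00391), after a fall of 0.54 on the log2 scale between 0 and 4 Gy (adjusted p = 0.039). Of 20 ATF4 stress and amino acid genes 18 were negative, with a median of -0.32 (-0.36 to -0.17 over the alternatives), and only Trib3 was called. The asparagine synthetase gene Asns and the glutathione-degrading enzyme gene Chac1 gave -0.51 ± 0.12 and -0.69 ± 0.18 SE without passing (adjusted p = 0.128 and 0.156). The amino acid response element core, TGATGNAA, was in the Trib3 promoter alone among 10 lower genes, in 4 of 28 higher genes and in 3.97% of all promoters.

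Gsta3 (chr1:21310806-21335885), a glutathione transferase that conjugates reactive compounds, was at 253, 289 and 232 CPM at 4 Gy and at 171, 177 and 146 CPM at 7 Gy. The 2 groups were clearly apart (-0.66 ± 0.08 SE, adjusted p = 0.00391), and 4 over 0 Gy gave 0.07 (adjusted p = 0.838). The other 19 NRF2 and glutathione genes were not called, and the list's median was -0.14 (-0.20 to -0.02 over the alternatives) with 15 of 20 negative. Nqo1, a classic NRF2 target, moved from 241, 204 and 154 CPM to 147, 126 and 178 CPM, so that mTG14 went against the other cultures.

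Egr1, an immediate early transcription factor of growth factor signalling, went from 202, 244 and 183 CPM to 103, 133 and 132 CPM (-0.79 ± 0.13 SE, adjusted p = 0.0173). It was the one called gene of 22 AP-1 and immediate early genes, whose median was -0.03, and Fos gave -0.26 ± 0.15 SE (adjusted p = 0.584). Tgm2, a transglutaminase that cross-links proteins, went from 117, 96.3 and 96.3 CPM to 83.7, 44.8 and 60.6 CPM (-0.76 ± 0.13 SE, adjusted p = 0.0246). Both genes had lower values at 7 Gy than in any 4 Gy library.

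Hspb1, a small heat shock protein gene, went from 450, 775 and 587 CPM to 314, 484 and 399 CPM (-0.61 ± 0.09 SE, adjusted p = 0.0142), and its pseudogene Hsp25-ps1, whose separate level is uncertain, gave -0.59. Klf9, a transcription factor gene induced by steroid and thyroid hormones, gave -0.57 ± 0.10 SE (adjusted p = 0.0253). Zc3h6, Ifitm10 and Tmie completed the largest falls, at -0.86, -0.73 and -0.66. Outside the naming rule Txnip, an inhibitor of thioredoxin, went from 263, 299 and 361 CPM to 191, 208 and 233 CPM (-0.56 ± 0.09 SE, adjusted p = 0.0142), and Megf11 and Grasp were also called lower. Klf9, Megf11 and Grasp were called in none of the 6 fits without 1 library. DESeq2 did not call Megf11 and Grasp (adjusted p = 0.377 and 0.0932).

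Lists tied to the radiation response itself showed no call between these doses. Of 22 p53 target genes 0 were called and 11 were positive, with a median of 0.01, and of 27 DNA damage signalling and repair genes 0 were called, with a median of 0.06. Cdkn1a, the p53 target that stops the cell cycle, was at 459, 688 and 561 CPM at 4 Gy and at 447, 541 and 492 CPM at 7 Gy (-0.21 ± 0.10 SE, adjusted p = 0.459). Mdm2, the p53 inhibitor, gave -0.04 ± 0.12 SE (adjusted p = 0.965). A p that misses the threshold does not show that the doses gave equal levels.

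The other doses of day 11 were compared by numbers of called genes, which depend on the power of each test and do not measure the size of a step. Against 0 Gy, 7 Gy was higher for 717 genes (3.6%) and lower for 579 (2.91%), and 4 Gy was higher for 172 (0.864%) and lower for 66 (0.332%). Against 2 Gy, 7 Gy was higher for 474 (2.38%) and lower for 265 (1.33%). These comparisons share the 4 or 7 Gy libraries. Whether the change from 4 to 7 Gy differed from that from 0 to 4 Gy was tested by 1 contrast, and 0 of 19901 genes passed edgeR's test, with 1373 at an unadjusted p under 0.05 and 17 calls by DESeq2. Cxcl2 and Duoxa2 were among the genes that did not pass. Without the filter on low counts 229 genes passed, and with only the compared groups 2.

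The same contrast was read at day 7. In 12 libraries that the day 11 fit did not use, 18 of 19346 genes were higher (0.093%) and 32 lower (0.165%) at 7 than at 4 Gy. Of the 34 genes higher at day 11, 2 were called higher and 1 lower at day 7, 21 being positive. Of the 15 lower genes 0 were called at day 7 and 9 were positive, with a median of 0.03. Bst2 and Calcb were the genes higher at both days, with day 7 log2 fold changes of 1.14 and 0.75 (adjusted p = 0.0482 and 0.0402), and Tacc3 was the gene that was lower at day 7, at -0.71 (adjusted p = 0.0402). The 50 day 7 calls became 0 without the replicate block, without mTG11 or without mTG14.

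**Figure D3:**
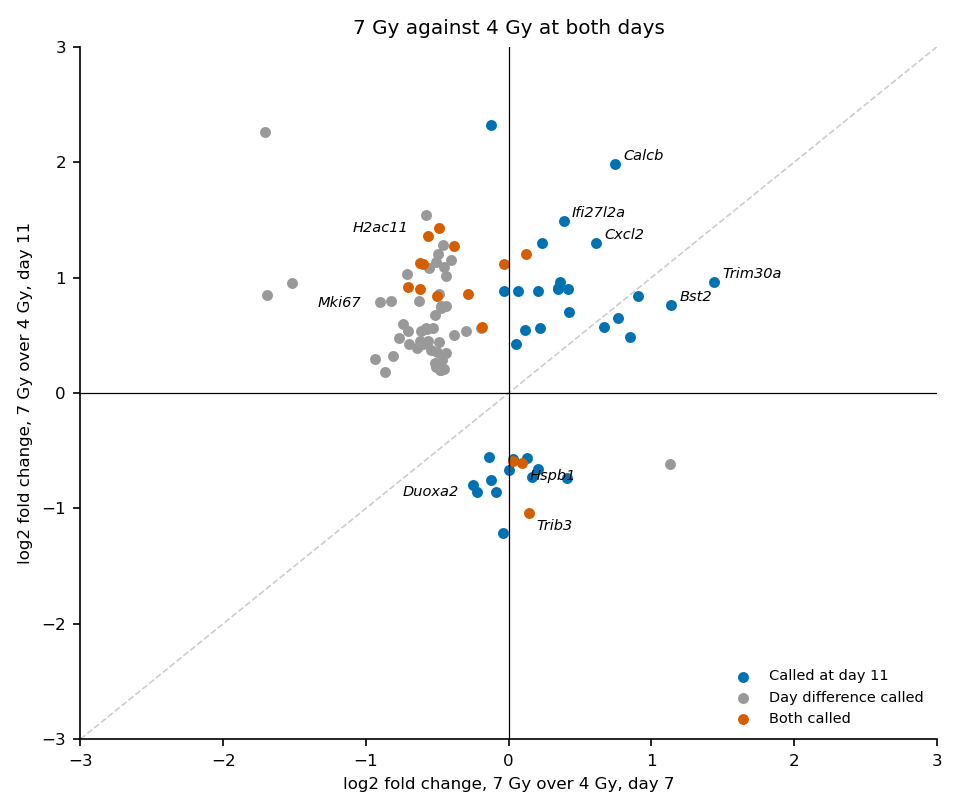
Each point is 1 gene called at day 11, in the test of the day difference or in both, with its log2 fold change of 7 Gy over 4 Gy at day 7 on the x axis and at day 11 on the y axis. The dashed line marks equal changes at both days, the colours give the tests passed, and 2 genes lie outside the axes. Cell cycle and histone genes such as Mki67 and H2ac11 lie below 0 at day 7 and above 0 at day 11.

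The day difference itself was tested in 1 fit of 24 libraries. The 7 over 4 Gy change was more positive at day 11 for 61 of 21928 genes (0.278%) and more negative for 6 (0.0274%). Of the mitosis list 13 and of the replication list 5 were among the former, and 0 of either among the latter. At day 7 all 28 mitosis genes had negative values, 3 of them called lower at 7 Gy, with a median of -0.51, and the replication genes had a median of -0.43 with 27 of 28 negative. At day 7 Mki67 was at 83.0, 75 and 94.2 CPM at 4 Gy and at 39.1, 45.2 and 47.2 CPM at 7 Gy, the opposite order to day 11, and its day difference was 1.71 ± 0.29 SE (adjusted p = 0.00628). Of the 16 H2ac genes 11 passed the day difference, 13 being negative at day 7 with a median of -0.46. These counts leaned on single cultures, as 0 genes passed the day difference without mTG11, 7 without mTG14 and 51 without mTG12, and 19 passed without the replicate block.

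For the interferon-stimulated genes the sign was positive at both days. At day 7 all 35 were positive with 9 called higher and a median of 0.97, and at day 11 the median was 0.48, with 0 members passing the test of the day difference. The MHC class I list had medians of 0.33 at day 7 and 0.45 at day 11, also with 0 passing. All 22 tested chemokines and cytokines were positive at day 7, with a median of 0.31 and 0 called. At day 11, 13 of them were positive with a median of 0.28, and 0 passed the day difference. Cxcl2 and Tnfaip3 gave 0.61 and 0.36 at day 7 without passing (adjusted p = 0.126 and 0.452).

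**Figure D4:**
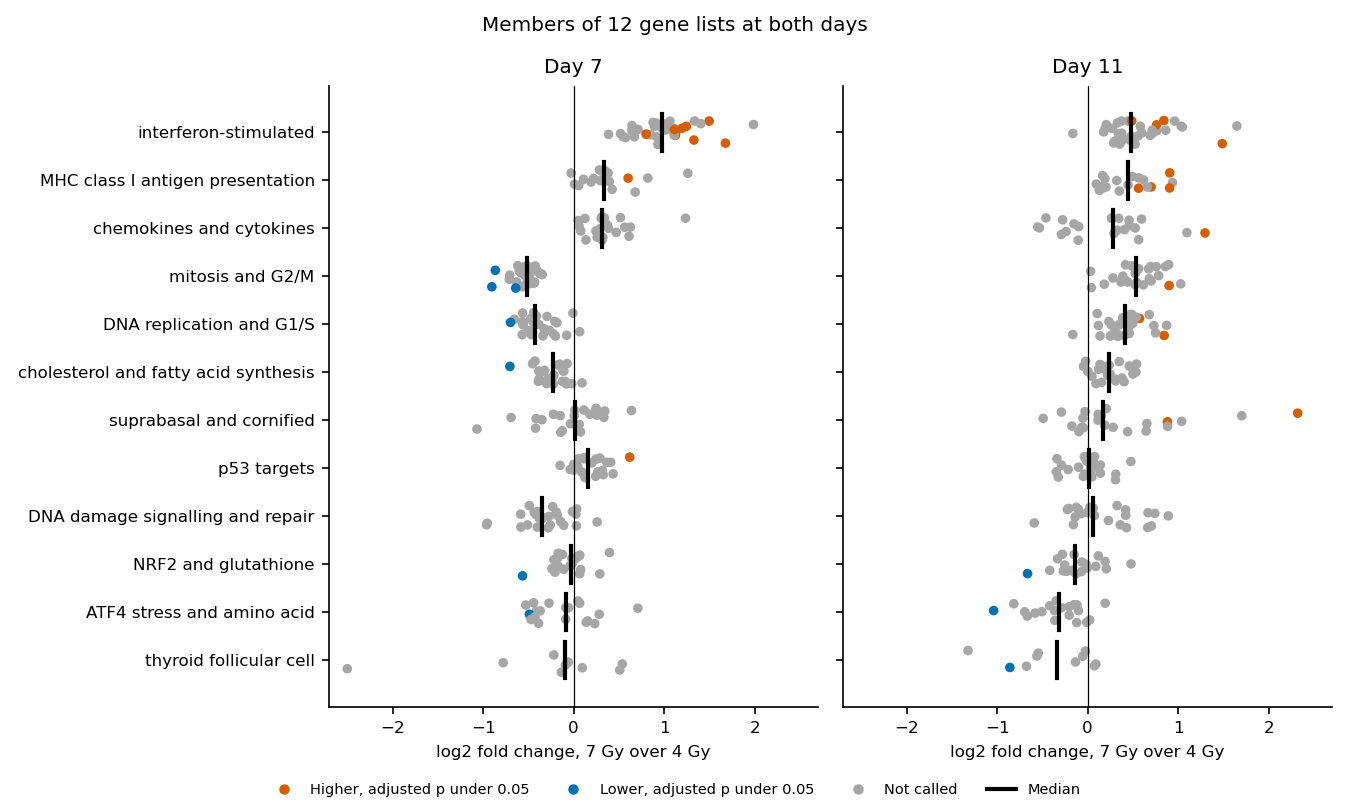
Log2 fold changes of 7 Gy over 4 Gy (x, values beyond 2.5 in either direction drawn at 2.5) for the members of 12 gene lists (rows) at day 7 and day 11 (panels), with called members in orange or blue, members not called in grey and the median of each list as a black bar. The medians of the mitosis and replication lists lie at -0.51 and -0.43 at day 7 and at 0.54 and 0.41 at day 11, while that of the interferon-stimulated genes is positive at both days.

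Culture time without radiation was read from the 0 Gy libraries of days 7 and 11, a comparison added after the data were seen. From day 7 to day 11, 2272 of 21928 genes rose (10.4%) and 2475 fell (11.3%), and among the 9447 genes whose mean reached 10 CPM 1614 rose (17.1%) and 1666 fell (17.6%). Of the 15 genes lower at 7 than at 4 Gy, 13 rose with time at 0 Gy and 0 fell, with a median log2 fold change of 1.28. Of the 34 higher genes 17 fell with time, 10 rose and 7 were not called. Genes lower at 7 Gy were thus mostly genes that rose with culture time in unirradiated organoids.

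The size of the change with time varied between genes. Duoxa2 rose by 5.14 on the log2 scale from day 7 to day 11 at 0 Gy, Tmie by 2.77, Tgm2 by 1.98 and Trib3 by 1.89, whereas Egr1 changed by 0.01. Of the higher genes, Cdk1 gave -1.74, H2ac11 -3.30 (15 of the 16 H2ac genes fell), S100a4 -3.13 and Sprr1b -6.31 with time, and the interferon genes B2m, Bst2 and Trim30a gave 1.19, 2.01 and 2.73. Cxcl2 and Tnfaip3 gave -0.04 and 0.07 with time at 0 Gy and were not called.

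**Figure D5:**
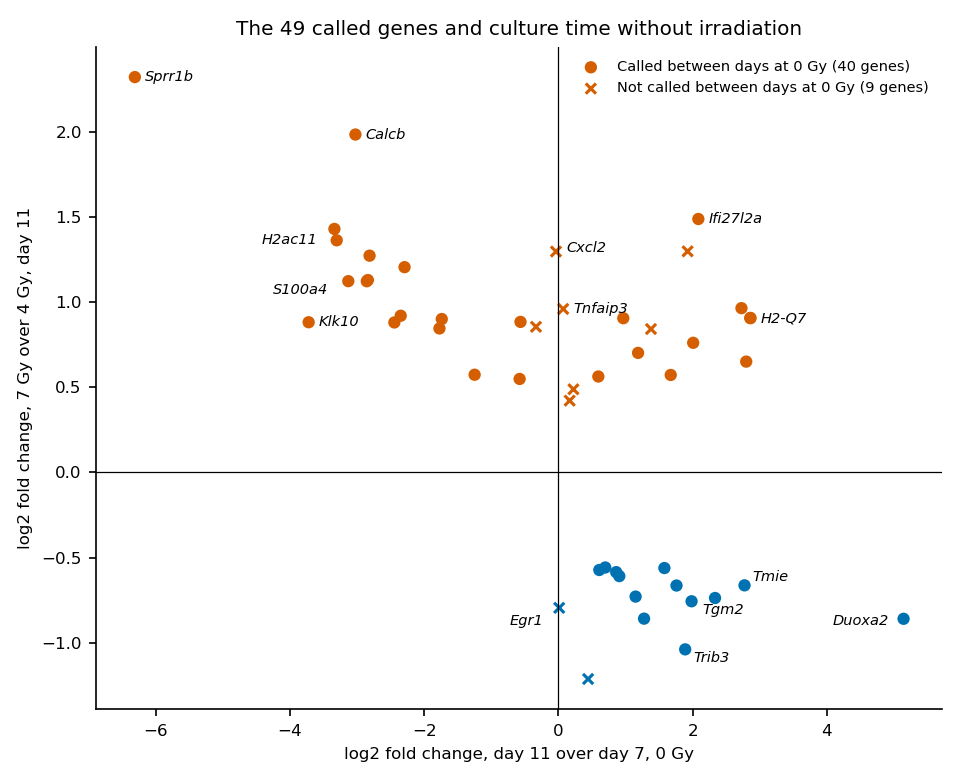
The 49 called genes by their log2 fold change from day 7 to day 11 at 0 Gy (x) and from 4 to 7 Gy at day 11 (y), with orange for higher and blue for lower at 7 Gy and the marker shape giving the result of the culture time test. All 15 blue points lie to the right of 0, and orange points lie on both sides.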

How the data were processed

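RNA of mTGOs was sequenced with Smart3SEQ, which reads the 3′ ends of poly(A) RNA, from 80 ng of RNA per library. The authors aligned the reads to GRCm39, and the submitters' processing notes name STAR and edgeR without versions. The deposited table holds estimated counts for 50559 gene symbols, not normalized, of which 55.1% of the nonzero values in the 6 libraries were whole. How reads were split between genes, and whether molecular identifiers were collapsed, is not given in the sources used here, so values at or near 0 cover counting error only.

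Groups came from the sample labels. The labels number the mice, and the columns name cultures instead, which could not be matched to those numbers, and the series' text speaks of 4 mice. Deviations from the group means correlated between libraries of the same culture at day 11 (0.263 to 0.439 over 18 pairs), so the culture was kept as a replicate block and was taken as the pairing. The smallest chi-square between replicates was 6.31 per degree of freedom.

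Counts, assumed whole in the design, were rounded and tested with edgeR 4.0.16 in R 4.3.3 (TMM, quasi-likelihood test, at least 10 counts summed over a fit, Benjamini-Hochberg at 0.05), in 1 fit of 12 libraries per day or 24 for the day difference. CPM were computed from library totals. Medians within a culture are of differences of log2 CPM with 1 CPM added, without TMM factors, and are unlike the fitted fold changes. DESeq2 1.42.0 and the other alternatives are given in the closing section. Genes were named if they were on a list, among the 12 largest rises or falls (adjusted p under 0.05, mean of at least 10 CPM, same sign in 3 cultures) or among the largest day differences. Some genes are not reported here. The comparison, the lists and the alternatives were chosen with earlier results of these data known. Promoter sequences came from RefSeq (GRCm38.p6) and were found for 38 of the 49 called genes.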

Additional observations from a re-analysis of the deposited data

Results flagged for a closer look

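In the test of the day difference, 67 genes changed unequally from 4 to 7 Gy at day 11 and at day 7 (edgeR, adjusted p under 0.05), and values for some of those named by the rule are given here as the day 11 minus the day 7 log2 fold change. For the histone genes H2ac11, H2ac12 and H2ac23, whose separate levels are uncertain, it was 1.94, 1.93 and 1.76. For Trib3 it was -1.15, for Hspb1 -0.69 and for its pseudogene Hsp25-ps1 -0.61. No single 4 or 7 Gy value was tested for outlying, since each group held 3 libraries.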

How the results depend on the processing

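Single genes were followed only through the alternatives that kept the main filter on low counts. The sign of all 49 called genes was kept under each of these. Of the 49, 41 were called by DESeq2, 41 without TMM factors and 38 when only the compared groups were fitted. The 49 calls for 7 over 4 Gy at day 11 became 0 with no replicate block and 433 with no filter on low counts, and ranged from 2 to 31 when 1 culture or 1 library was left out (16, 11 and 2 without mTG11, mTG12 and mTG14). DESeq2 gave 62 calls, a robust prior, added after the data were seen, 72, and libraries thinned to the smallest total 47, of which 39 were shared. The 50 calls at day 7 became 0 with no replicate block, 337 with no filter and 111 with only the compared groups, and ranged from 0 to 91 with a culture or library left out. The 67 genes with a day difference became 19 with no replicate block and 375 with no filter, and ranged from 0 (without mTG11) to 74. The step test, with 0 calls, gave 17 by DESeq2, 229 with no filter and 2 with only the compared groups, and 0 to 3 with a library or culture left out. For 7 over 0 Gy the 1296 calls became 302 with no replicate block, 811 by DESeq2 and 461 to 746 without a culture. For 4 over 0 Gy the 238 became 1 with no replicate block, 773 with no filter and 88 to 108 without a culture. For 7 over 2 Gy the 739 became 122 with no replicate block, 1363 with no filter and 181 to 516 without a culture. At 0 Gy the 4747 calls between days were 3872 with no replicate block and 2825 to 3870 without a culture. The fits with fewer samples have less power by construction, and the cause of the other shifts was not tested. For single genes the call held in 465 and was lost in 417 of the cases tried with the main filter, and none changed sign. The median of a list moved by more than its spread in 49 of the cases tried and stayed within it in 508, and those of the p53, DNA damage, AP-1, immune, parathyroid and Schwann lists, all close to 0 or of few genes, changed sign in some. At this depth 3 counts stand for up to 0.828 CPM, so genes below about 1 CPM were not resolved.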

Other observations

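Gene lists not described above gave few or no calls between 7 and 4 Gy at day 11. Genes of cholesterol and fatty acid synthesis had 23 of 25 positive log2 fold changes with a median of 0.24 (0.12 to 0.39 over the alternatives) and 0 calls, against 1 of 25 positive and a median of -0.22 at day 7, and 3 of them passed the test of the day difference. Cytosolic ribosomal protein genes had 1 of 29 positive with a median of -0.12, and mitochondrially encoded genes 1 of 13 with a median of -0.21, both with 0 calls. Glycolysis and hypoxia genes, cell cycle inhibitors with D cyclins, TGF-beta and EMT genes and Notch genes had medians of -0.01, 0.01, -0.04 and -0.02 and 0 calls, and each of these 4 medians changed sign under some alternatives, the glycolysis list also without TMM factors (0.01).

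Lists of epithelial cell types had 0 calls outside the cornified genes. The medians were 0.11 for basal epithelium, 0.05 for simple epithelium, 0.10 for secretory mucosal cells and 0.15 for multiciliated cells, and those of simple epithelium and multiciliated cells changed sign under some alternatives. Within the cultures mTG11, mTG12 and mTG14 the cornified list had medians of -0.18, 0.67 and 0.07, and the secretory list -0.04, 0.59 and -0.18.

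Markers of other cell types had 0 calls apart from Calcb. Summed fibroblast markers were at 18.4 to 136 CPM at 4 Gy and 21.3 to 96.4 CPM at 7 Gy, with 2 of 12 positive and a median of -0.45 (-0.65 to -0.15 over the alternatives). Skeletal muscle markers had 7 of 7 positive with a median of 0.92 (0.50 to 0.97 over the alternatives) and summed to 24.5 to 56.0 CPM at 4 Gy and 35.2 to 92.2 CPM at 7 Gy, the desmin gene Des giving 1.00 ± 0.26 SE (edgeR adjusted p = 0.171). Parathyroid, adipocyte and Schwann and neuronal markers had medians of -0.32, -0.46 and 0.16 over the 3, 2 and 3 members that could be tested, and 2 endothelial markers had a median of 0.63.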
